A study of Mus musculus with 4 samples.

Results

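The genes described here encode the nuclear-encoded parts of the mitochondrial respiratory chain and of ATP synthase. They were taken by name, as every probe whose platform symbol begins with Ndufa, Ndufb, Ndufc, Ndufs, Ndufv, Sdha to Sdhd, Uqcr, Cox4 to Cox8 or Atp5, with the Ndufaf assembly factors left out. The rule took 83 genes on 129 of the 45281 probes. Of these, 74 were kept as detected, which required a detection p below 0.01 for 2 or more of the 4 arrays, and they stand among 10335 genes and unnamed probes that were tested. They comprised 35 genes of complex I, 7 of complex II, 6 of complex III, 11 of complex IV and 15 of complex V. The letters of the rule also took some genes that encode no subunit: Sdhaf1, Sdhaf2, Sdhaf3 and Sdhaf4, which encode assembly factors of complex II, Cox7a2l, which encodes a factor that joins complexes III and IV, and Ndufs5-ps, annotated as a pseudogene. Their values are given with the complex whose name they carry.

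The wild type group was peritoneal macrophages of C57BL/6 mice, measured on 2 arrays, and the other group was peritoneal macrophages of C57BL/6 mice with a knock out of CD13, also on 2 arrays. CD13 is the cell-surface aminopeptidase encoded by Anpep. The series text describes the cells as resting, and it names bone marrow derived macrophages as well, but every array here is labelled peritoneal. The sources used here give neither the age of the mice, nor how many animals stand behind an array, nor how the null allele was made. Nothing says that the arrays of a group came from separate animals, and the p-values reflect the spread between arrays alone, which may be technical.

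The respiratory chain lies in the inner mitochondrial membrane. Complex I takes electrons from NADH and complex II takes them from succinate, complex III passes them from ubiquinol to cytochrome c, and complex IV hands them to oxygen. Complexes I, III and IV pump protons as they work, and complex V lets the protons flow back to make ATP. In macrophages this machinery is known for its link to activation state: alternatively activated cells rely on it, while cells activated with lipopolysaccharide shift towards glycolysis.

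All 4 arrays carried a macrophage signature, with 7 of 7 macrophage markers that have a probe detected. Pearson's r across genes was 0.981 between the wild type and 0.979 between the knockout arrays. Anpep, the targeted gene, had log2 intensities of 13.58 and 13.40 in wild type against 11.12 and 11.03 in knockout. Its log2 change was -2.41 ± 0.18 (SE; limma adjusted p = 0.0261). This call was lost when any single array was left out (adjusted p = 0.123 to 0.173) and when dim probes were not filtered out (adjusted p = 0.0551). Whether its probe falls inside the deleted stretch is unknown here.

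Across the respiratory chain, 0 of 74 genes differed between CD13 knockout and wild type macrophages in limma with Benjamini-Hochberg adjustment over all genes tested, against 0.0484% of all genes called higher and 0.0484% called lower at an adjusted p under 0.05. The smallest adjusted p among them was 0.468, for Cox6a2. At an unadjusted p under 0.05 there was 1 gene higher, Cox6a2, and 0 lower, where 4.25% and 5.10% of all genes stood. The log2 change of the other 73 lay between -0.42 for Atp5e and 0.37 for Atp5k, so that 73 of 74 measured changes were smaller than 1.5-fold, as were those of 90.0% of all genes.

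The arrays bounded most of these genes to within 1 log2 unit in either direction, but fewer of them to within 1.5-fold. The 95% interval of the log2 change, from the moderated standard error, lay within 1 log2 unit of 0 for 71 of 74 members and for 78.3% of all genes. The exceptions were Ndufb10, Cox6a2 and Atp5e. The interval lay within a 1.5-fold change in either direction for 28 of 74 members and for 25.0% of all genes, and for the other members it reached beyond that size.

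**Figure D1:**
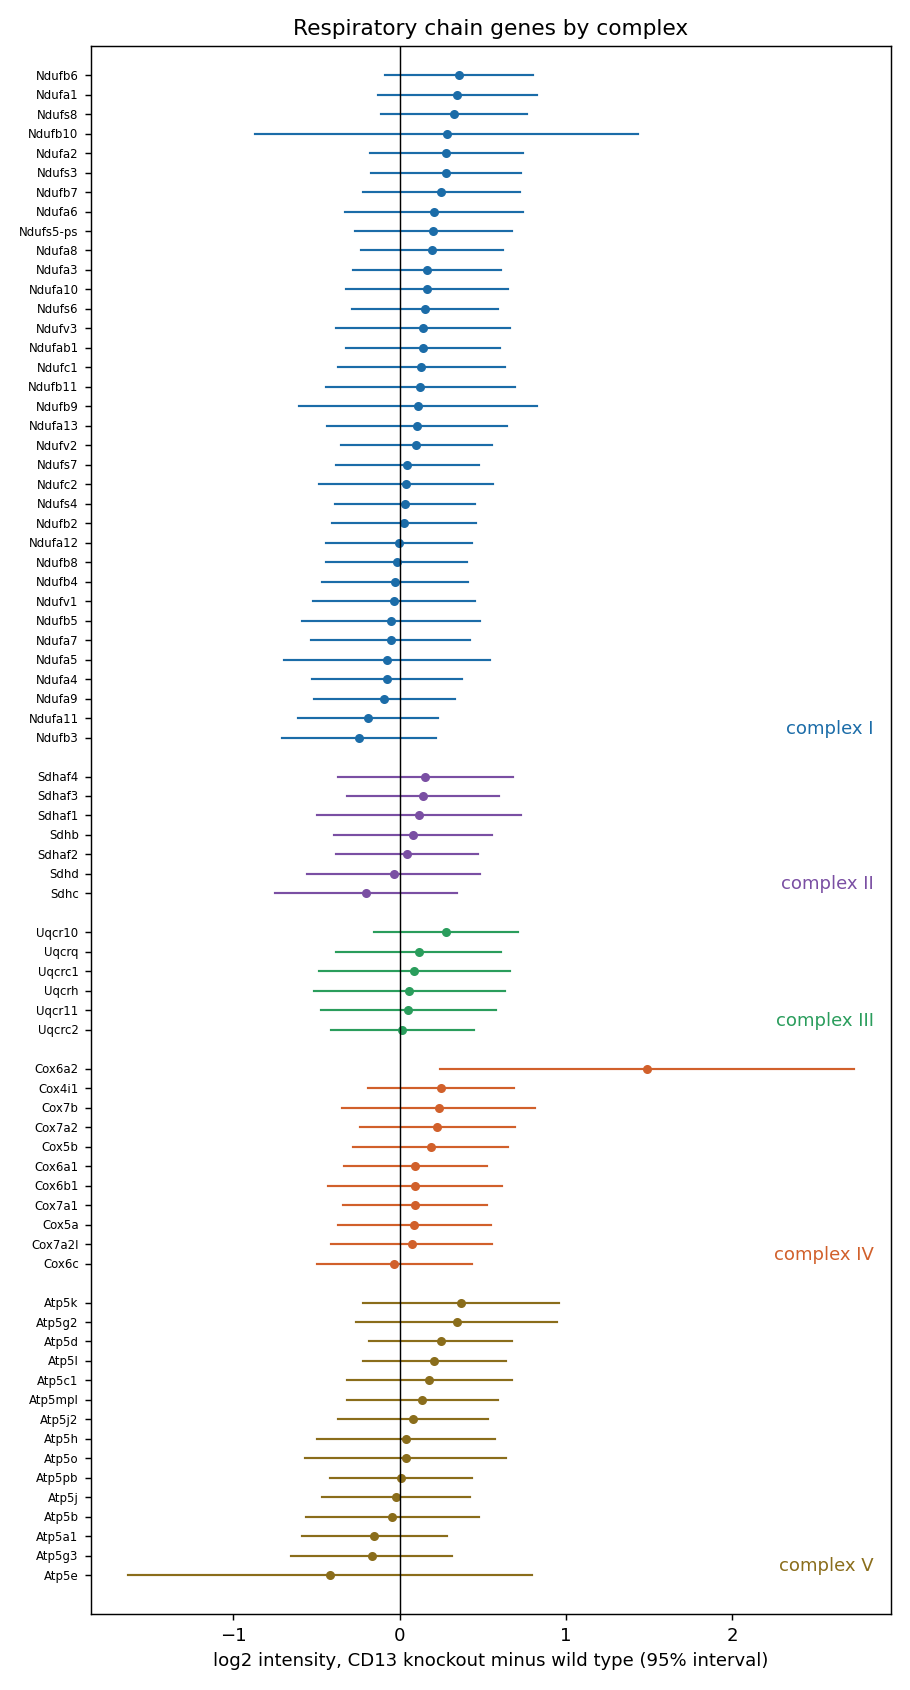
Log2 change of each of the 74 detected respiratory chain genes (CD13 knockout minus wild type, horizontal axis), grouped and coloured by complex, where a point is the limma estimate and the bar its 95% interval from 2 arrays per group. The intervals of 73 genes include 0, and that of Cox6a2 runs from 0.25 to 2.73.

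As a group the members sat slightly above the rest of the genes. The median log2 change of the 74 was 0.09, against 0.01 over all genes tested, and 55 of 74 had a higher mean in the knockout, against 51.7% of all genes. Both knockout arrays lay above both wild type arrays for 21 of 74, against 20.8% of all genes, and below them for 4 of 74, against 19.1%. The arrays of the genotypes were thus separate for 25 of 74 members and for 39.9% of all genes. The 4 lower ones were Ndufb3, Ndufa11, Ndufa9 and Atp5a1, named after their values were seen. When arrays were instead brought to the same median signal, all genes had a median of -0.33 and the members one of -0.24, leaving 5 of 74 with a higher mean, but 57 of 74 still lay above the median of all genes, close to the 54 of 74 under the main processing.

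This shift was no larger than the difference between arrays of the same genotype. From wild type array 1 to wild type array 2 the median member differed by 0.12 and 58 of 74 were higher on array 2, against 51.1% of all genes. From knockout array 1 to knockout array 2 it differed by 0.15 and 56 of 74 were higher on array 2, against 50.9% of all genes. Measured from each gene's mean over the 4 arrays, the median member stood at -0.10 on wild type array 1, 0.03 on wild type array 2, -0.02 on knockout array 1 and 0.15 on knockout array 2. The genotypes therefore overlapped, with a wild type array lowest, a knockout array highest, and wild type array 2 above knockout array 1. Between arrays of the same number the knockout array stood higher, but the labels state nothing that pairs them. Leaving out wild type array 1 brought the median to 0.01 with 40 of 74 higher, and leaving out knockout array 2 likewise to 0.01 with 40 of 74 higher. Omitting wild type array 2 gave 0.15, and omitting knockout array 1 gave 0.22. The median intensity before normalization was 167.1 for wild type array 1, 127.6 for wild type array 2, 122.4 for knockout array 1 and 109.0 for knockout array 2, and the part of array brightness in this ordering was not tested.

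**Figure D2:**
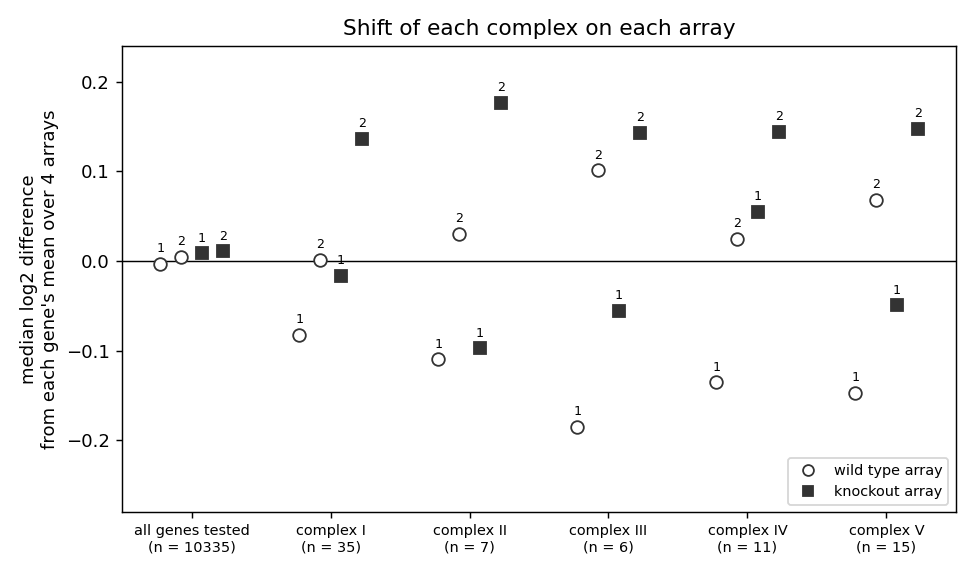
Median log2 difference from each gene's own mean over the 4 arrays (vertical axis), for all genes tested and for each complex, with open circles for wild type and filled squares for knockout arrays and the replicate number above each point. All genes stay near 0 on every array, while in complexes I, II, III and V wild type array 2 lies above knockout array 1.

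**Figure D3:**
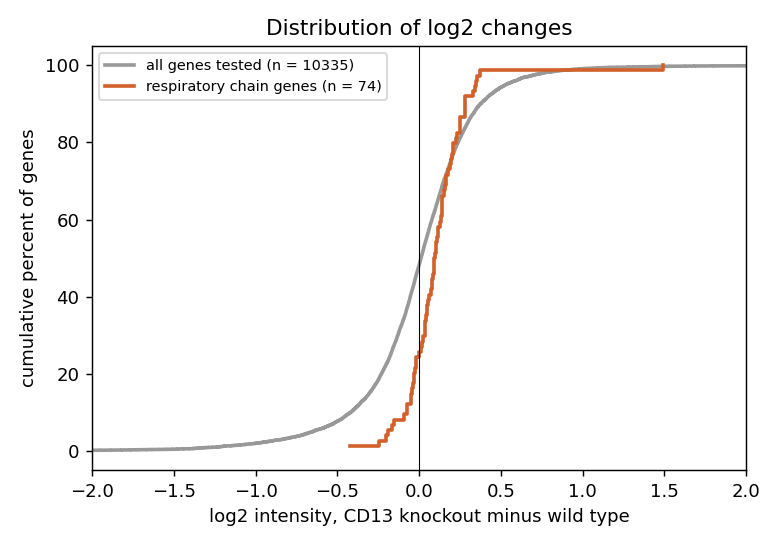
Cumulative percent of genes (vertical axis) against the log2 change between CD13 knockout and wild type (horizontal axis), for 10335 genes tested in grey and 74 respiratory chain genes in orange. The orange curve is steeper and crosses its middle at 0.09, against 0.01 for the grey curve; genes beyond a log2 change of 2 in either direction are outside the axis.

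The complexes differed from each other by less than the arrays of a genotype did. Their median log2 changes were 0.11 for complex I, 0.08 for complex II, 0.07 for complex III, 0.09 for complex IV and 0.04 for complex V. The standard deviation between replicate arrays of the same quantity was 0.09, 0.15, 0.17, 0.09 and 0.15 in that order. The number of genes with a higher mean in the knockout was 24 of 35, 5 of 7, 6 of 6, 10 of 11 and 10 of 15. With knockout array 2 left out the medians ran from -0.06 for complex II to 0.12 for complex IV, and with knockout array 1 left out from 0.18 for complex III to 0.25 for complex V. The order of the complexes thus differed between these omissions, and no test of one complex against another was made.

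In complex I, the nuclear-encoded core subunits, most of which carry the flavin or an iron-sulphur cluster, had a median log2 change of 0.10 over 5 detected genes. Accessory subunits surround this core, and the 29 genes counted as such by name had a median of 0.11. Among them was Ndufa4, since found in complex IV. Of the core genes, Ndufs8, which encodes an iron-sulphur subunit of the arm that reduces ubiquinone, read 11.60 and 11.65 in wild type and, on the same log2 scale, 11.86 and 12.04 in knockout. The groups did not overlap, and the log2 change was 0.33 ± 0.18 (SE; limma adjusted p = 0.652). Ndufs3, another core subunit of that arm, read 11.30 and 11.47 in wild type against 11.59 and 11.74 in knockout, likewise without overlap (log2 change 0.28 ± 0.18, limma adjusted p = 0.713). Ndufs7, also a core subunit of that arm, had overlapping groups, with 12.15 and 12.29 in wild type against 12.25 and 12.28 in knockout (0.05 ± 0.17). The core genes of the NADH-oxidizing module overlapped too, with log2 changes of -0.03 ± 0.19 for Ndufv1, which encodes the flavin-bearing subunit, and 0.10 ± 0.18 for Ndufv2. Of all genes 39.9% had separate groups, and the modules were not tested against each other. The probe for Ndufs1, the core subunit with the most iron-sulphur clusters, was not above background on any array.

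Among accessory subunits the smallest unadjusted p belonged to Ndufb6, a subunit of the membrane arm, with 12.33 and 12.23 in wild type against 12.55 and 12.72 in knockout. Its log2 change of 0.36 ± 0.18 came with a limma adjusted p of 0.633, and its other detected probe gave 0.16. Ndufa1, an X-linked membrane subunit needed for assembly of the complex, read 13.49 and 13.27 in wild type against 13.62 and 13.84 in knockout (log2 change 0.35 ± 0.19, limma adjusted p = 0.669). Both knockout arrays were the higher ones for each of these genes. Ndufa2 read 12.78 and 13.01 in wild type against 13.13 and 13.23 in knockout (0.28 ± 0.18), and Ndufb7 read 9.40 and 9.46 against 9.54 and 9.82 (0.25 ± 0.19), again without overlap. Both are accessory subunits. In the other direction, Ndufb3 read 10.84 and 11.08 in wild type against 10.78 and 10.65 in knockout (-0.25 ± 0.19). Ndufb10 was the least reproducible of the complex, with 8.69 and 9.98 in wild type against 9.92 and 9.31 in knockout, so its log2 change of 0.28 carried an SE of 0.46. Ndufb3 and Ndufb10 were chosen after their values were seen. Of the remaining accessory genes, Ndufa8, Ndufa3 and Ndufs6 also had both knockout arrays above, with log2 changes of 0.15 to 0.19, as had the pseudogene Ndufs5-ps (0.20 ± 0.19), and Ndufa11 (-0.19 ± 0.17) and Ndufa9 (-0.09 ± 0.17) had both below. The other accessory genes had overlapping groups.

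Ndufs4, which encodes an accessory subunit whose loss in mice causes a Leigh-like encephalopathy, was measured by 4 detected probes. The brightest gave a log2 change of 0.03 ± 0.17, and the others lay between -0.19 and -0.09. Ndufab1, the mitochondrial acyl carrier protein, had 3 detected probes with log2 changes of 0.14 to 0.16. Of 24 members with several detected probes, 18 had probes of the same sign and 6 had both signs, namely Ndufa5, Ndufa8, Ndufs4, Ndufs6, Ndufv3 and Atp5j. The largest difference between probes of a gene was 0.39, in Ndufa8, whose main probe read 12.01 and 12.11 in wild type against 12.21 and 12.29 in knockout and whose other probe had a log2 change of -0.19. Ndufa5 read 11.18 and 11.18 against 10.80 and 11.41 (-0.08 ± 0.25), and its other probe gave 0.23. Ndufs6 read 12.83 and 12.84 against 13.08 and 12.90, with the other probe at -0.09. In these genes the direction thus depended on the probe. Ndufv3 read 12.10 and 12.23 against 12.10 and 12.51 (0.14 ± 0.21), and its other probes gave 0.21 and -0.15. For Ndufa3 the other probe gave 0.38, against 0.16 for the main one.

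Complex II is the only complex of the chain with no mitochondrially encoded subunit, and it also serves the tricarboxylic acid cycle. Sdhb, its iron-sulphur subunit, read 11.54 and 11.68 in wild type against 11.55 and 11.83 in knockout, a log2 change of 0.08 ± 0.19. Sdhc and Sdhd, the membrane anchors, had log2 changes of -0.20 ± 0.22 and -0.04 ± 0.21. The Sdhc values were 11.28 and 11.46 in wild type against 10.95 and 11.39 in knockout, so the groups overlapped. The flavoprotein gene Sdha was not above background. The 4 assembly factor genes ranged from 0.05 for Sdhaf2 to 0.16 for Sdhaf4, all with overlapping groups. Sdhaf3 read 8.21 and 8.17 in wild type against 8.20 and 8.46 in knockout, Sdhaf4 10.61 and 10.74 against 10.63 and 11.03, and Sdhaf1 8.66 and 9.15 against 8.84 and 9.20. Without them, the median over the 3 detected subunits was -0.04 in place of 0.08, and 1 of 3 had a higher mean in the knockout.

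In complex III all 6 detected genes had a higher mean in the knockout, by 0.02 to 0.28 on the log2 scale, but the groups separated for 1 of 6, where 39.9% of all genes have separate groups. That gene was Uqcr10, a small subunit, with 13.44 and 13.48 in wild type against 13.67 and 13.81 in knockout (log2 change 0.28 ± 0.17, limma adjusted p = 0.705). Its other probe gave 0.25, with groups that overlapped. The core proteins Uqcrc1 and Uqcrc2 had log2 changes of 0.09 ± 0.23 and 0.02 ± 0.17, with Uqcrc1 at 11.32 and 11.81 in wild type against 11.56 and 11.75 in knockout. Uqcrh, the acidic hinge protein that contacts cytochrome c1, read 13.63 and 14.03 in wild type against 13.72 and 14.06 in knockout, so array 2 was the higher in both genotypes. Uqcrq, a small subunit, read 9.86 and 10.07 against 10.22 and 9.94 (0.11 ± 0.20), and Uqcr11 had a log2 change of 0.05 ± 0.21. Neither probe of Uqcrfs1, the Rieske iron-sulphur protein, was above background. The median of the complex became 0.24 on omitting wild type array 2 and -0.06 on omitting wild type array 1, and it was -0.03 with 2 of 6 higher on omitting knockout array 2, so its direction rested on single arrays of both genotypes.

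Complex IV contained the member with the largest change. Cox6a2 encodes the heart and skeletal muscle isoform of subunit VIa. It read 7.65 and 9.19 in wild type against 10.06 and 9.77 in knockout, with both knockout arrays above both wild type arrays. The wild type arrays differed from each other by more than wild type array 2 differed from either knockout array. The log2 change was 1.49 ± 0.50 (SE, n = 2 per group), a 2.81-fold difference with a 95% interval of 0.25 to 2.73, and the limma adjusted p was 0.468. Leaving out wild type array 1 gave 0.72 (limma adjusted p = 0.546), and leaving out wild type array 2 gave 2.26 (limma adjusted p = 0.210). Over all 16 other settings the adjusted p of Cox6a2 lay between 0.185 and 0.682 and its sign did not change.

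The ubiquitous isoform of the same subunit, Cox6a1, read 13.82 and 13.82 in wild type against 13.99 and 13.84 in knockout, a log2 change of 0.09 ± 0.17. Of other tissue-restricted isoforms, Cox7a1, the muscle form of subunit VIIa, was detected on every array at 8.02 and 7.87 in wild type against 8.06 and 8.01 in knockout (0.09 ± 0.17), and its ubiquitous counterpart Cox7a2 at 9.01 and 8.82 against 9.04 and 9.24 (0.23 ± 0.19). The probes for Cox4i2, a lung-enriched and hypoxia-responsive isoform, Cox8b, a muscle isoform, and Cox7b2 and Cox8c, testis isoforms, were not above background on any array. For Cox6b2, also a testis form, 1 of 2 probes was above background, on 1 array.

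Skeletal muscle markers were examined because of Cox6a2, as a list added after its value was seen. Of 12 markers with a probe, 11 did not pass the filter on detection, among them Acta1, Ckm and Mb, and the remaining Tnni2 read 9.04 and 8.98 in wild type against 8.52 and 8.73 in knockout, opposite in direction to Cox6a2. Cox6a2 lies on the chromosome of Anpep, next to the integrin genes Itgad, Itgax and Itgam in the order of protein-coding genes of RefSeq assembly GRCm38.p6. Itgax, which encodes CD11c, read 6.88 and 8.09 in wild type against 9.57 and 9.54 in knockout (log2 change 2.07 ± 0.40, limma adjusted p = 0.270), and Itgam, which encodes CD11b, 9.96 and 10.29 against 8.53 and 8.54 (-1.59 ± 0.19, limma adjusted p = 0.145). In Cox6a2, Itgax and Itgam alike wild type array 2 was above wild type array 1, and Itgam had the opposite sign of log2 change. Itgax and Itgam were also chosen after their values were seen. Itgad was not among the genes tested. The other tested genes within 12 places of Cox6a2 had log2 changes from -0.39 for Pycard to 0.36 for Kat8.

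The other genes of complex IV had smaller log2 changes than Cox6a2. Cox4i1, the ubiquitous regulatory subunit IV, read 14.04 and 14.21 in wild type against 14.34 and 14.41 in knockout (log2 change 0.25 ± 0.18, limma adjusted p = 0.743). Cox5b, which encodes a zinc-binding subunit, read 13.74 and 13.99 against 14.00 and 14.11 (0.19 ± 0.19). For both genes the knockout arrays were the higher, and for Cox5b by 0.01 at the nearest. The other detected probe of Cox5b had overlapping groups (log2 change 0.09). Cox5a (0.09 ± 0.18), Cox6b1 (0.09 ± 0.21), Cox6c (-0.03 ± 0.19), Cox7b (0.23 ± 0.23) and the supercomplex factor Cox7a2l (0.07 ± 0.19) had overlapping groups. Cox7b, a small subunit encoded on the X chromosome, read 6.98 and 6.60 in wild type against 6.83 and 7.22 in knockout. The other detected probe of Cox6b1 read 13.03 and 13.21 against 13.37 and 13.41, a log2 change of 0.27 with separate groups. Ndufa4, named for complex I but since found in complex IV, stood at -0.08 ± 0.18, and moving it left the medians at 0.12 for complex I and 0.09 for complex IV.

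**Figure D4:**
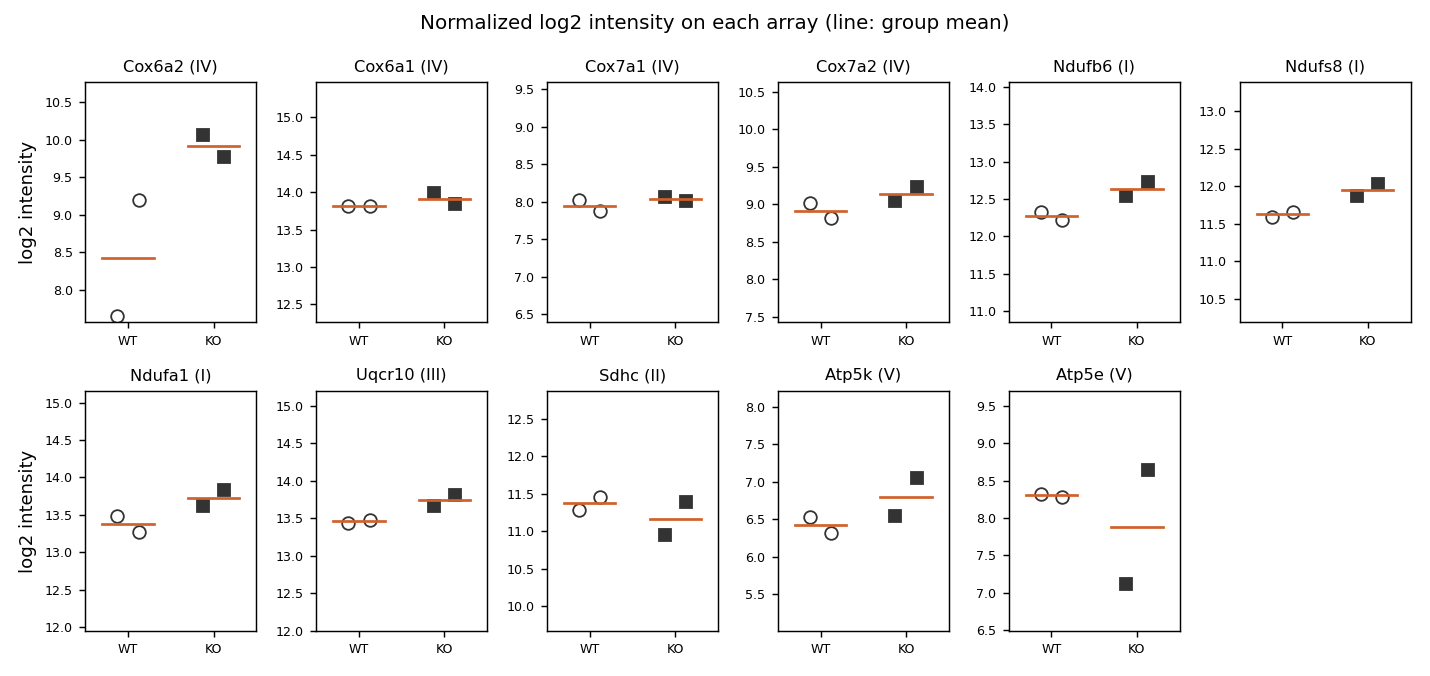
Normalized log2 intensity (vertical axis, each panel spanning the same range) of 11 respiratory chain genes on the 2 wild type (open circles) and 2 knockout arrays (filled squares), with group means as lines and the complex in brackets. Cox6a2 has a wild type mean of 8.42 and a knockout mean of 9.91 with wide spread in wild type, Atp5e spreads widely in knockout, and in the other panels the means differ by 0.37 or less.

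In complex V, the catalytic F1 part, counted with the central stalk, had a median log2 change of -0.04 over 5 genes. These were Atp5a1, Atp5b, Atp5c1, Atp5d and Atp5e. The membrane part with the peripheral stalk had a median of 0.06 over 10. Atp5b, the catalytic beta subunit, read 14.80 and 15.18 in wild type against 14.86 and 15.02 in knockout (-0.04 ± 0.21). The alpha subunit gene Atp5a1 read 10.08 and 10.13 against 9.87 and 10.03 (-0.15 ± 0.17), and its other detected probe gave -0.14 with overlapping groups. Atp5d, which encodes the delta subunit of the central stalk, had 11.69 and 11.78 against 11.92 and 12.04 (0.25 ± 0.17, limma adjusted p = 0.737). Atp5e, the epsilon subunit, was the lowest of all members and was chosen after its values were seen. It read 8.32 and 8.28 in wild type against 7.12 and 8.65 in knockout, so the lowest and the highest value both came from the knockout and the log2 change of -0.42 had an SE of 0.49.

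Of the membrane part, Atp5k, which encodes the small subunit e, had the largest log2 change, 0.37 ± 0.24 (limma adjusted p = 0.710), with 6.53 and 6.31 in wild type against 6.54 and 7.05 in knockout. Its groups did not overlap, but it lay near background and was detected on 3 arrays. Atp5l, which encodes subunit g, read 14.28 and 14.37 against 14.48 and 14.58 (0.21 ± 0.17), and its other detected probe gave 0.22. The proton-carrying c subunit is made from several genes that encode the same mature protein. Of these, Atp5g2 read 10.23 and 10.81 in wild type against 10.89 and 10.84 in knockout (0.34 ± 0.24), and Atp5g3 read 14.58 and 14.66 against 14.61 and 14.29 (-0.17 ± 0.19). The estimates had opposite signs and neither passed. Atp5pb, Atp5h, Atp5j and Atp5o, of the peripheral stalk, lay between -0.02 and 0.04 on their main probes, with overlapping groups. Another detected probe of Atp5pb read 11.14 and 11.24 in wild type against 11.50 and 11.49 in knockout, a log2 change of 0.30 with separate groups. Atp5j read 13.54 and 13.43 against 13.38 and 13.55, and its other probe gave 0.12, also with separate groups. For both genes the probes thus differed. Atp5c1, the gamma subunit of the central stalk counted with F1 above (0.18 ± 0.20), Atp5j2 (0.08 ± 0.18) and Atp5mpl (0.14 ± 0.18) complete the detected genes. Of these Atp5mpl alone had separate groups, with 13.73 on wild type array 2 against 13.74 on knockout array 1. Its other detected probe had overlapping groups. Atp5md was not kept, with 1 of its 2 probes above background on 1 array.

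The 8 detected members on the chromosome of Anpep, by the same RefSeq assembly, were Ndufa3, Ndufab1, Ndufc2, Sdhaf1, Uqcrc2, Cox6a2, Cox6b1 and Cox7a1. All 8 had a higher mean in the knockout, with a median log2 change of 0.10, and 2 of 8 did so without overlap, Ndufa3 and Cox6a2. Over all genes these shares were 51.7% and 20.8%. Apart from Cox6a2 their log2 changes ran from 0.02 for Uqcrc2 to 0.16 for Ndufa3. The 66 members on other chromosomes had a median of 0.09, with 47 of 66 higher.

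Most members shared the direction of their difference between replicate arrays, and their promoters were searched for 4 motifs, among them those of regulators known for this gene class. Nuclear respiratory factor 1 binds a palindromic GC-rich motif, searched here in its consensus form, and GABP, an ETS-family factor once called nuclear respiratory factor 2, binds motifs with the core CCGGAAG. Both strands of the 250 bases before each RefSeq start (GRCm38.p6) were read, and 63 of the 74 genes matched, with 68 windows. The first motif was in 17.6% of these windows, against 8.51% of windows of all genes tested that matched and 3.74% of all 32851 RefSeq windows. The ETS letters were in 20.6%, against 14.2% and 6.91%. For comparison, the TATA box letters TATAAA were in 8.82%, against 6.53% and 12.4%, and the E-box letters CAGCTG in 5.88%, against 11.1% for the genes tested. The shares differed by complex, but some rest on few windows and the differences were not tested. The ETS letters were in 8.82% of 34 windows of complex I, and in 50.0% of 6 of complex II and of 4 of complex III. The first motif was in 0 of 4 windows of complex III and in 25.0% of 16 of complex V. Of 6 windows with TATAAA, 5 were of complex I, which supplied 34 of the 68 windows, and Ndufa7 was counted among them more than once. The motifs do not overlap in the windows printed here, and a match describes letters only, with no statement on binding.

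Windows are shown for the ubiquitous partner of Cox6a2 and for the members with the smallest unadjusted p in complexes I, III and V, as examples of windows with and without these letters. Each is written 5′ to 3′ on the gene's strand and ends at the base before the start, with the searched motifs in capitals.
Cox6a1, chr5:115348959-115349208, - strand: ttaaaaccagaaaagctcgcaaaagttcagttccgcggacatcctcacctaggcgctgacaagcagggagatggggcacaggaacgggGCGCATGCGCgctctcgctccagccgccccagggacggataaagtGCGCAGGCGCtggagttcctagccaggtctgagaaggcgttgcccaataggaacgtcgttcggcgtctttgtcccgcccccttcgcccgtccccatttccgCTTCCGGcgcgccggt
Ndufb6, chr4:40279422-40279671, - strand: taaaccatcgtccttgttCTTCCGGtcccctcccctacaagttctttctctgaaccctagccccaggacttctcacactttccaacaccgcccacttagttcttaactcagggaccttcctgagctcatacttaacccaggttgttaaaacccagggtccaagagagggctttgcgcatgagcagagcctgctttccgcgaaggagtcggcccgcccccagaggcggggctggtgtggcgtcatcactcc
Uqcr10, chr11:4704345-4704594, - strand: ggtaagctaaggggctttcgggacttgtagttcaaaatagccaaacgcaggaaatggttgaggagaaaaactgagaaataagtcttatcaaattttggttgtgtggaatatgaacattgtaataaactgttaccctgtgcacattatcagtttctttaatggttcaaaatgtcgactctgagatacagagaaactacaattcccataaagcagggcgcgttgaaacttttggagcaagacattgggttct
Atp5k, chr5:108434400-108434649, - strand: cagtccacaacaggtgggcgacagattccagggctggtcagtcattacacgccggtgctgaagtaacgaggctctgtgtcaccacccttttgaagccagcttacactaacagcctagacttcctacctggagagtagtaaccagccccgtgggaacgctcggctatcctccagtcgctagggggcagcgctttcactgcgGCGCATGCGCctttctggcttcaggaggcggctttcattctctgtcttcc
Cox6a1 has the nuclear respiratory factor 1 letters beginning 162 and 117 bases before its start and the ETS letters at 16. Atp5k has the former at 50 bases, Ndufb6 has the latter at 232 bases, and neither was found in the window of Uqcr10.

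Genes around the respiratory chain, in lists set with earlier results of these data known, were read next, and 0 of them passed in either direction. Among 18 detected electron carriers and subunits outside the name rule the median log2 change was 0.09, with 10 of 18 higher and Dhodh, which links pyrimidine synthesis to ubiquinone, at 0.46 ± 0.23. Of 13 assembly factors of complex I the median was -0.06, with 5 higher, among them Ecsit (0.35 ± 0.20) and Ndufaf8 (0.33 ± 0.20). The 8 assembly factors of complexes II and III, which include the Sdhaf genes counted above, had a median of 0.15 and 7 higher, with Uqcc1 at 0.33 ± 0.18. The 20 of complex IV had a median of 0.01, with Surf1 at 0.38 ± 0.21. Cox11, which inserts copper, stood at -0.64 ± 0.22 (limma adjusted p = 0.501), but it lay near background and was detected on 3 arrays. It read 6.89 and 7.24 in wild type against 6.61 and 6.25 in knockout. The 4 of complex V had a median of 0.19, with Tmem70, which helps build the c ring, at 0.33 ± 0.20.

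The enzymes that feed the chain had a lower median than its subunits. Of 15 detected tricarboxylic acid cycle and pyruvate dehydrogenase genes, the median log2 change was -0.07 and 6 had a higher mean in the knockout. Dlat, the acetyltransferase of the pyruvate dehydrogenase complex, read 8.07 and 7.83 in wild type against 7.52 and 7.24 in knockout (-0.57 ± 0.20, limma adjusted p = 0.497), and Fh1, fumarate hydratase, 10.12 and 10.19 against 9.64 and 9.94 (-0.37 ± 0.19, limma adjusted p = 0.639). The groups did not overlap for either gene, and whether the cycle enzymes differ from the subunits was not tested.

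Of 17 detected regulators of respiratory chain gene expression, 7 were higher, with a median of -0.04. Polg2, the accessory subunit of the mitochondrial DNA polymerase, read 7.74 and 7.85 in wild type against 8.26 and 8.16 in knockout (0.42 ± 0.17, limma adjusted p = 0.540). Ppargc1a, a coactivator that drives mitochondrial biogenesis, read 7.23 and 6.77 against 7.30 and 7.87 (0.58 ± 0.28, limma adjusted p = 0.605). Others of similar size, chosen after their values were seen, had the opposite sign, also without overlap. Tfb2m, a mitochondrial transcription factor, had a log2 change of -0.42 ± 0.22 (limma adjusted p = 0.639) and Mterf3 one of -0.40 ± 0.24. No probe was matched to the 13 mitochondrially encoded subunits.

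Markers of cell types differed in level between the arrays, and 0 passed in either direction in any list. All 6 markers of the resident large peritoneal macrophage had a lower mean in the knockout, with a median log2 change of -0.91, and their summed linear intensity was 22294 and 32140 in wild type against 16550 and 17051 in knockout. The smallest adjusted p among them was 0.496, for Alox15, and the groups overlapped for Icam2 and Gata6. The general macrophage markers summed to 124512 and 128903 in wild type against 116017 and 110031 in knockout, with a median of -0.18. The 4 detected B cell markers summed to 3783 and 4584 against 2062 and 3492, but they had both signs. Cd22 stood at 0.93 ± 0.20 (limma adjusted p = 0.279) and Ms4a1 at -1.23 ± 0.30 (limma adjusted p = 0.357). Ms4a1 lay near background and was detected on 2 arrays only, so the size of its change is uncertain. It read 6.85 and 7.51 in wild type against 5.71 and 6.19 in knockout. The 3 detected neutrophil markers of 7 summed to 1037 and 2642 against 2612 and 2250. Among them Ltf, detected on 3 arrays, had a log2 change of 2.00 ± 0.45 (limma adjusted p = 0.312). S100a8 (0.49 ± 0.45) and S100a9 (-0.02 ± 0.97) had overlapping groups, and Ngp, Camp, Elane and Mpo were not kept. Of the T and NK cell markers Lat alone was detected, at 6.86 and 8.04 in wild type against 9.70 and 9.29 in knockout (2.05 ± 0.41, limma adjusted p = 0.270), while Cd3e, Cd3d, Cd3g, Ncr1 and Klrb1c were not kept. Lat and Cd22 lie on the chromosome of Anpep, as does the macrophage marker Itgam, which had a lower mean in the knockout. The part of this position in their values was not tested. The 3 detected mast cell markers of 6 summed to 318 and 434 against 186 and 366, 1 erythroid marker of 2, Hba-a1, had a log2 change of -0.76 ± 0.47, and no eosinophil or mesothelial marker was kept. In these bulk samples fewer cells of a type and less RNA per cell cannot be told apart, and the part of cell makeup in the values of the respiratory chain genes was not tested.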

How the data were processed

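RNA of peritoneal macrophages (2 wild type and 2 CD13 knockout arrays) was measured on Illumina MouseWG-6 v2.0 BeadChips. Per the series text, data were extracted with GenomeStudio. The deposited signal table gives the average bead intensity per probe on a linear scale, not normalized between arrays, and beside it the authors deposited a detection p-value. The sources used here do not say whether background was subtracted before export. A second deposited table holds intensity values that were quantile normalized, per the series text, and served as an alternative.

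Signals were background corrected with normexp informed by the detection p-values (offset 16), quantile normalized and log2 transformed (limma 3.58.1, R 4.3.3). Probes detected at p under 0.01 on at least 2 arrays were kept (14881 of 45281), and the probe with the highest mean deposited signal stood for a gene. Names came from the platform annotation and RefSeq GRCm38.p6. The deposited files name no build. Knockout and wild type were compared with lmFit and eBayes, with Benjamini-Hochberg adjustment over 10335 genes and unnamed probes (threshold 0.05). The pipeline was tested on simulated data. Precision is limited by having 2 arrays per group. For a single value an exact permutation of 2 against 2 arrays cannot give a two-sided p below 0.333.

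The members and all lists were chosen with earlier results of these data known. Members were named by a rule that took those with the smallest unadjusted p (6 in complex I, 4 in each other complex), tissue isoforms, members with disagreeing probes and members on the chromosome of Anpep. Other genes are marked as chosen after their values were seen, apart from members named to complete a complex. The split into core and accessory subunits was set after the values were seen. The split of complex V into F1 and membrane part was not planned beforehand either.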

Additional observations from a re-analysis of the deposited data

How the results depend on the processing

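Of the respiratory chain genes 0 passed in the main processing, in all 16 alternatives and in both alternatives of membership, with a smallest adjusted p between 0.185 and 0.682. The median log2 change of the members moved from 0.09 to -0.24 with median scaling, where complexes I to V stood at -0.21, -0.25, -0.25, -0.19 and -0.24 and all genes at -0.33. Relative to all genes the members then stood at 0.09, against 0.08 in the main processing, so the scaling moved members and background together. Leaving out single arrays gave medians of 0.0083 to 0.22 for all members, 0.011 to 0.23 for complex I, -0.06 to 0.22 for complex II, -0.06 to 0.24 for complex III, 0.093 to 0.24 for complex IV and -0.010 to 0.25 for complex V.

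Over all genes, the 5 higher and 5 lower calls (10 in all) became 17 without background correction, 201 with median scaling (14 higher and 187 lower), 6 without the filter on dim probes, 4 for probes detected on all 4 arrays and 16 with an intensity trend. Median scaling thus raised the share of lower calls. Single omissions gave 5 to 12 calls. With the replicate number as a block, 0 members passed (smallest adjusted p = 0.348) and the calls over all genes were 13. Array 1 of each group shared a number and nothing else that the labels state, and the deviations of these arrays correlated at r = -0.00212 across genes. Most members, however, were higher on array 2 in both groups, 58 of 74 in wild type and 56 of 74 in knockout. Of the 38 members named by the rule above, 6 kept the sign of their log2 change in every setting that measured them. These settings numbered 16, less 1 for Atp5k, which was not detected on all 4 arrays. They include median scaling, where all genes had a median of -0.33 and 5 of 74 members a higher mean. For Atp5d, Atp5l, Cox4i1 and Cox6a1, among others, it alone gave the other sign, whereas Atp5j had the other sign in 4 settings. The cause of these changes was not tested, beyond the smaller number of arrays or the different number of genes tested. The Illumina error model named in the series text was not run. The 2.81-fold difference of Cox6a2 did not pass with 2 arrays per group, and its SE of 0.50 was the largest of all members.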
